A study of Homo sapiens with 2 samples.

Results

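The transcription factors that set and end the identity of a B cell were examined in L-428 cells, an established Hodgkin lymphoma (HL) cell line, after knock-down of PRAME. The group comprised 10 genes: PAX5, EBF1, POU2F2, POU2AF1, SPIB, TCF3, BACH2, IRF4, PRDM1 and ID2. Its members were all 41 probe sets that the array annotation assigns to exactly 1 of these genes, out of 41091 probe sets with 1 gene symbol, and probe sets of low signal were included. A further probe set of ID2 is also assigned to ID2B and was left out. One array was hybridized with RNA from L-428 cells transfected with the vector pcDNA6.2-GW/EmGFP-miR-PRAME, which expresses an artificial microRNA against PRAME, and the other with RNA from L-428 cells carrying pcDNA6.2-GW/EmGFP-miR-neg, called the empty vector by the study, which served as control. Per the methods both vectors encode EmGFP and stable transfectants were selected with blasticidin, and the sources used here do not give whether the transfectants were pools or clones. The samples are labelled L-428, whereas the design text deposited with them gives L-540 and another array type. With 1 array per condition there is no spread between replicates, so no test was performed and every difference below describes these 2 arrays only.

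PAX5 and EBF1 commit lymphoid progenitors to the B cell fate together with the E protein TCF3, and POU2F2 (OCT2), its coactivator POU2AF1 (BOB.1) and SPIB act on B cell promoters in mature B cells. BACH2 holds activated B cells in the germinal center program, and IRF4 and PRDM1 (BLIMP1) drive the step to the plasma cell. ID2 binds E proteins and keeps them from DNA. Hodgkin and Reed-Sternberg cells are of B cell origin and are known for low expression of many B cell factors and for high expression of IRF4 and ID2.

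The values are MAS5 signals on a linear scale, and ratios are given as log2 of the knock-down signal over the control signal. The ratios were centered on the median of the 27307 probe sets whose mean log2 signal reached the median of all probe sets, which corresponds to a signal of 97.7 and is called the filter here. Signals of different probe sets depend on their probes and do not rank transcript levels. PRAME itself (204086_at) gave 1251 in the knock-down cells and 2115 in the control cells, a log2 ratio of -0.80. For GAPDH the 3' probe set over the 5' probe set gave 1.04 in knock-down cells and 0.948 in control cells. The median log2 ratio moved with the signal, with 0.21 for probe sets between 97.7 and 136 and -0.088 between 1362 and 2799. All 9 genes used as markers of Hodgkin and Reed-Sternberg cells, among them CD30 (TNFRSF8) with 1667 in knock-down and 1893 in control cells, were above the filter, as were 8 of 16 B cell surface and signaling genes and 4 of 17 genes of T, NK and myeloid cells. Of 29 probe sets for genes of other tissues 1 was above the filter. It was 231671_at of FGA, with 190 in knock-down and 93.1 in control cells (log2 ratio 0.99). A gene not expected in lymphoid cells differed by nearly 2-fold here. Its probe set passed the filter only through its knock-down signal, so this ratio is no measure of the spread at low signal.

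Of the 10 factors, BACH2 was lower in the knock-down cells in all of its probe sets and by 1.84-fold or more, TCF3 and PRDM1 were lower in some probe sets and higher in others, and IRF4 was higher by less than 1.5-fold. In total 26 of the 41 member probe sets were above the filter, of which 14 had a log2 ratio below 0 and 12 above 0. In the knock-down cells 6 of the 26 (23.1%) were lower by 1.5-fold or more, against 6.54% of all probe sets with 1 symbol above the filter. These 6 came from only 3 genes, with 3 of TCF3, 2 of BACH2 and 1 of PRDM1, and probe sets of 1 gene are not independent. Higher by 1.5-fold or more was 1 of the 26, a probe set of TCF3, against 7.38% of all. After subtraction of the trend with signal, and after quantile normalization, the split was 4 lower and 2 higher. With the trend subtracted, 7.06% of all probe sets with 1 symbol above the filter were lower and 5.98% higher by that much. With quantile normalization these shares were 6.95% and 6.15%. With each gene at its probe set of highest mean signal, BACH2 and TCF3 of 9 measured members were lower by at least 1.5-fold, against 5.42% of 11794 genes, and no member was higher by that much, against 7.54%. TCF3 was just past the threshold and was within 1.5-fold in 6 of 8 alternatives, whereas BACH2 was past it in all 7 alternatives that measured it. The median log2 ratio of the 9 genes was -0.22 and that of all genes -0.0069. The median over all kept probe sets of each gene gave 0.10 for the members, so the direction of the group depended on the choice of probe set.

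**Figure D1:**
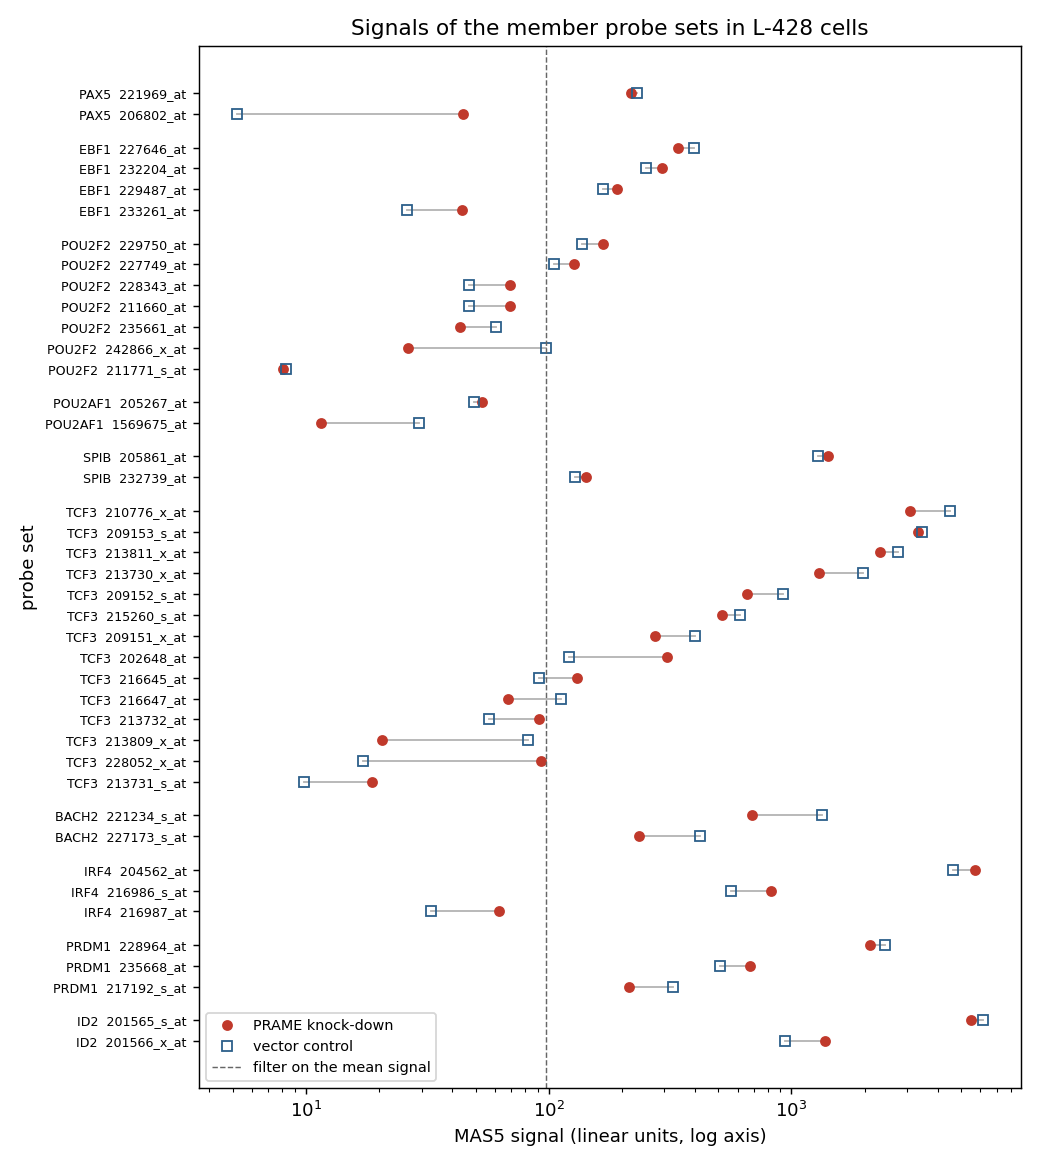
MAS5 signals of all 41 member probe sets (log axis) in PRAME knock-down cells (red points) and vector control cells (blue squares), 1 array each, with a dashed line at the filter of 97.7. Both BACH2 probe sets lie lower in knock-down cells and both IRF4 probe sets above the filter lie higher, whereas the probe sets of TCF3, PRDM1 and ID2 differ in direction.

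**Figure D2:**
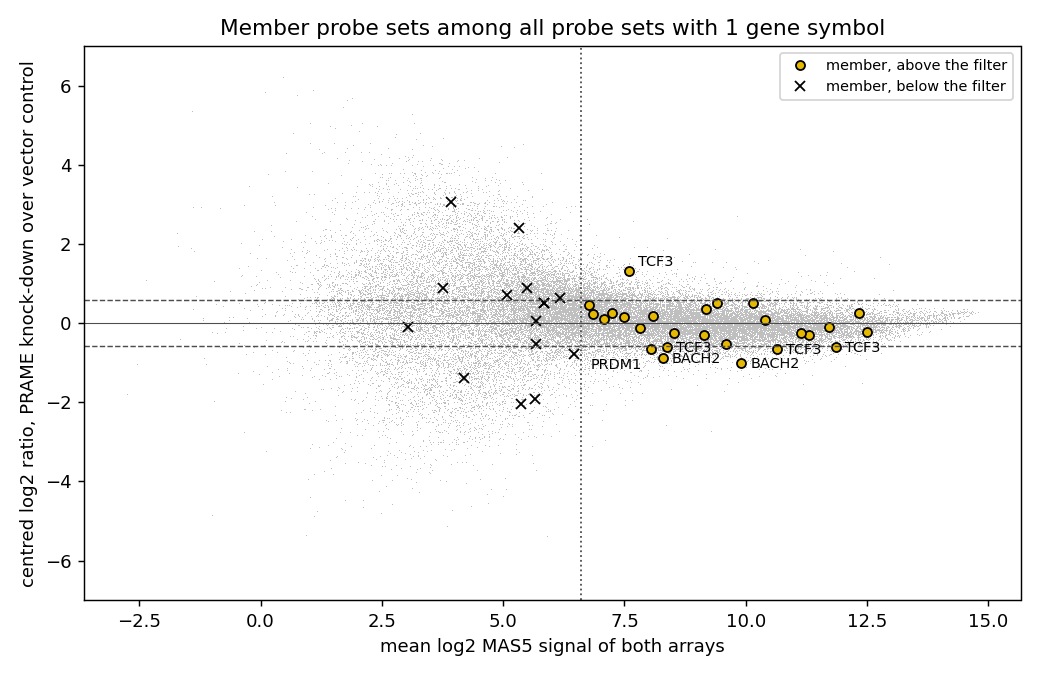
Centered log2 ratio (PRAME knock-down to vector control) plotted over the mean log2 signal, for all probe sets with 1 gene symbol (grey) and the members (yellow above the filter, crosses below it), 1 array per condition. Dashed lines stand at 1.5-fold and the dotted line at the filter. The 7 named points are the 6 member probe sets lower and the 1 higher by 1.5-fold or more, and the spread of the grey points widens toward low signals.

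BACH2, a repressor that competes with activators at sites for AP-1 and small MAF proteins, had lower signals after knock-down in both probe sets. With 221234_s_at the signal was 689 in the knock-down cells and 1337 in the control cells, a log2 ratio of -1.001 or 2.002-fold lower after centering. The signal of 227173_s_at was 235 in the knock-down cells and 419 in the control cells (log2 ratio -0.88, 1.84-fold lower). Of the 1000 probe sets nearest in mean signal, 1.0% and 1.9% had a lower log2 ratio than these probe sets. Among 3105 genes with exactly 2 probe sets above the filter, both were lower by at least 1.5-fold for 1.29%, as for BACH2, and both were higher for 1.38%. By its probe set of highest signal BACH2 was the only member past 2-fold, where 0.729% of all genes were lower and 1.73% higher. The 2-fold call was lost without centering, with quantile normalization, with the trend subtracted and with an offset of 64. It was also lost with the filter at the 75th percentile, and it held without a filter. Over the 6 alternatives of scaling, offset and filter the log2 ratio of 221234_s_at lay between -1.10 and -0.93 and that of 227173_s_at between -0.97 and -0.73, although the filter at the 75th percentile would leave out 227173_s_at. BACH2 lies on chromosome 6, and of its 50 nearest measured genes in gene order 11 were lower and 1 was higher by 1.5-fold or more, with a median log2 ratio of -0.15. On the whole chromosome 7.08% of 650 other genes were at least 1.5-fold lower, with a median of -0.071. Only 1 of the 50 neighbors had a lower log2 ratio than BACH2. The part of this region in the lower signal of BACH2 was not tested.

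The paralog of BACH2 and genes known as repressed by BACH proteins were examined next. BACH1, which binds the same sites, had a signal of 597 in the knock-down cells and 1046 in the control cells in its probe set above the filter (204194_at, log2 ratio -0.85). Of 7 measured genes known as repressed by BACH proteins, 5 had a log2 ratio above 0 and 1 was at least 1.5-fold higher. Of all 11794 genes, 5782 were above 0 and 7.54% were at least 1.5-fold higher. The median of the list was 0.17 and lay between 0.034 and 0.27 over the alternatives. The gene of the list past the threshold was HMOX1, the heme oxygenase that is a classical target of BACH1, with 217 in the knock-down cells and 104 in the control cells. Its log2 ratio was 1.01, and 0.70 with an offset of 64. The cystine transporter SLC7A11 had 2820.0 in knock-down and 2375 in control cells for 209921_at (log2 ratio 0.20) and 3494 in knock-down and 1906 in control cells for 217678_at (0.83). Its remaining probe set, 207528_s_at, had 432 in knock-down and 258 in control cells (0.70). Thioredoxin reductase TXNRD1 had 3158 in knock-down and 2443 in control cells (0.33). GCLM, a subunit of the enzyme that starts glutathione synthesis, had 1506 in knock-down and 1790.4 in control cells (-0.29), but its 3 probe sets ranged from -0.42 to 0.48.

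PRDM1, the repressor of the B cell program in plasma cells and a known target of BACH2, was measured by 3 probe sets that differed in direction. The signal of 228964_at was 2114 in the knock-down cells and 2425 in the control cells (log2 ratio -0.24). The signal of 217192_s_at was 214 in the knock-down cells and 325 in the control cells (-0.65, 1.57-fold lower). In contrast, 235668_at had 675 in the knock-down cells and 507 in the control cells (0.37). The range of 1.01 was wider than that of 91.9% of 1556 other genes with 3 probe sets above the filter. PRDM1 lies on the same chromosome as BACH2 and 32 of the 50 nearest measured genes of each are shared. Of its 50 neighbors 8 were at least 1.5-fold lower and their median log2 ratio was -0.14, and the part of the region in the signals of PRDM1 was not tested.

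The promoters of BACH2 and PRDM1 are shown because these genes carry the lower signals outside of TCF3, and that of ID2 because ID2 is discussed with TCF3 below. RefSeq lists promoters for 9 of the 10 members, 2 of them for PRDM1, and the 250 bases before the transcription start were searched on both strands. Capitals mark the box GGGCGG or its reverse complement in BACH2, the site TGANTCA for BACH and AP-1 proteins in PRDM1 and the E-box CANNTG in ID2, and sequences are written 5' to 3' on the strand of the gene.
BACH2 (GRCh38.p14, chr6:90296844-90297093, minus strand): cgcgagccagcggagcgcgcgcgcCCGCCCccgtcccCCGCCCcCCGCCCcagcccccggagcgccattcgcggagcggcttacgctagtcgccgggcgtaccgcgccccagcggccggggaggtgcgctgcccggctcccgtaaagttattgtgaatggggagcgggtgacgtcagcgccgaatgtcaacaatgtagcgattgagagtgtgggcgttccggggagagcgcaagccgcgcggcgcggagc
PRDM1 (GRCh38.p14, chr6:106098691-106098940, plus strand): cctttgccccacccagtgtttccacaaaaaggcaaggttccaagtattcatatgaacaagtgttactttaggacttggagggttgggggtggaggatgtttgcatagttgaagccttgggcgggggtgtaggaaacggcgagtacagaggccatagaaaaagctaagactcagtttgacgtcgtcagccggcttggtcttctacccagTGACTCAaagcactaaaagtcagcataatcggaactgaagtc
ID2 (GRCh38.p14, chr2:8681806-8682055, plus strand): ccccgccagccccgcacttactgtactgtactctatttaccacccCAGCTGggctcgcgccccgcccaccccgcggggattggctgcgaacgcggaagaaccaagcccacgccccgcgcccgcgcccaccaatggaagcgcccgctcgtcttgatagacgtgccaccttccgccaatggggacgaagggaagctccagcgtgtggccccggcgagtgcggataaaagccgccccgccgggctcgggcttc
The site TGANTCA was found in 1 of the 10 member promoters, the PRDM1 promoter shown, where TGACTCA begins 42 bases before the start, and in 6.57% of all 35116 promoters. Of the 2 promoters of PRDM1 this one was printed because of its match, and the other holds no such site. An E-box was found in 7 of 10 member promoters and in 61.8% of all, and GGGCGG in 7 of 10 and in 42.6% of all. The octamer ATGCAAAT bound by POU2F2 was in none of the 10 (1.63% of all), and the site AGGTCA of retinoic acid receptors was in 1 of 10, that of SPIB (12.1% of all). These matches describe the sequence only, and a window without a match says nothing about binding of a factor.

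TCF3 encodes the E proteins E12 and E47, which drive B cell genes through E-boxes. Of its 14 probe sets 9 were above the filter, and their log2 ratios ranged from -0.65 to 1.31. The 7 of them with the endings _s_at or _x_at, which can match several transcripts of a gene or other genes, all had lower signals in the knock-down cells, with log2 ratios from -0.65 to -0.098 and a median of -0.54. The probe set with the highest signal, 210776_x_at, had 3068 in the knock-down cells and 4491 in the control cells (-0.59), just past the threshold of 1.5-fold. The probe set 213730_x_at had 1298 in the knock-down cells and 1974 in the control cells (-0.65), and 209151_x_at had 274 in knock-down and 402 in control cells (-0.60). By contrast 209153_s_at, also of high signal, had 3318 in the knock-down cells and 3441 in the control cells (-0.098). The 3 other probe sets of this kind did not reach 1.5-fold, with 2314 in knock-down and 2749 in control cells for 213811_x_at (-0.29), 656 in knock-down and 923 in control cells for 209152_s_at (-0.54) and 518 in knock-down and 614 in control cells for 215260_s_at (-0.29).

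Both remaining TCF3 probe sets above the filter, which carry the plain ending _at, had higher signals after knock-down. The signal of 202648_at was 308 in the knock-down cells and 121 in the control cells, a log2 ratio of 1.31, and 99.2% of the 1000 probe sets nearest in mean signal had a lower ratio. The signal of 216645_at was 130.3 in the knock-down cells and 91.5 in the control cells (0.46), so it passed the filter only through its knock-down signal. Over all genes, the medians of probe sets above the filter were -0.028 with the endings _s_at, _x_at or _a_at and -0.0075 with the plain ending. The direction of TCF3 therefore depended on the probe set, and without centering only 213730_x_at of the 3 lower probe sets was past 1.5-fold. Among 22 other genes with 8 to 10 probe sets above the filter, 81.8% had a narrower range than that of TCF3, which was 1.96. The 5 TCF3 probe sets below the filter also went both ways. Lower in the knock-down cells were 216647_at, with 68.3 in knock-down and 112.9 in control cells, and 213809_x_at, with 20.6 in knock-down and 82.6 in control cells. Higher were 213732_at, with 91.2 in knock-down and 56.9 in control cells, 228052_x_at, with 93.1 in knock-down and 17.2 in control cells, and 213731_s_at, with 18.8 in knock-down and 9.81 in control cells. With an offset of 64 the log2 ratio of 213809_x_at was -0.83 and that of 228052_x_at 0.91, so these 5 values add no clear direction.

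**Figure D3:**
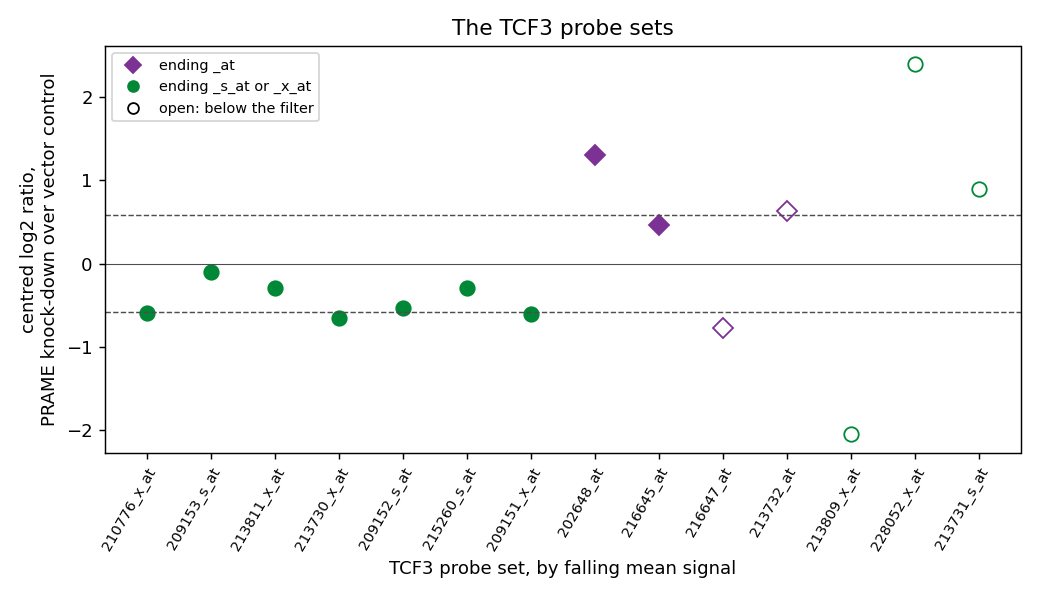
Centered log2 ratio (PRAME knock-down to vector control) of the 14 TCF3 probe sets, ordered by falling mean signal, 1 array per condition. Green circles end in _s_at or _x_at, purple diamonds in _at, open symbols are below the filter and dashed lines stand at 1.5-fold. The 7 filled circles lie between -0.65 and -0.098 and both filled diamonds above 0. Of the diamonds, 216645_at passed the filter only through its knock-down signal.

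ID2, the inhibitor of E proteins, was well above the filter in both conditions, but its probe sets differed in direction. For 201565_s_at the signal was 5464 in the knock-down cells and 6159.7 in the control cells (log2 ratio -0.22). The signal of 201566_x_at was 1379 in the knock-down cells and 937 in the control cells (0.51), and 95.8% of the 1000 probe sets nearest in mean signal had a lower ratio. Of the other E and ID proteins, TCF4 was measured by 8 probe sets above the filter, whose log2 ratios all lay between -0.52 and -0.041. TCF12 had 2573 in the knock-down cells and 2970.5 in the control cells (-0.25). ID1 had 123 in knock-down and 102 in control cells (0.21), and MSC (ABF-1), an antagonist of E2A known from HL cells, had 2339 in knock-down and 2121 in control cells (0.096). Of the 6 measured genes of this list, TCF3 alone was at least 1.5-fold lower, a call lost in 6 of 8 alternatives, and none was at least 1.5-fold higher, with a median of -0.19. Over all genes these shares were 5.42% lower and 7.54% higher.

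IRF4, which at high levels drives plasma cell differentiation and is a marker of Hodgkin and Reed-Sternberg cells, had higher signals after knock-down in all 3 probe sets. That of 204562_at was 5703 in the knock-down cells and 4633 in the control cells (log2 ratio 0.25). The signal of 216986_s_at was 826 in the knock-down cells and 565 in the control cells (0.50). Both differences were below 1.5-fold, although 89.8% and 93.4% of the 1000 probe sets nearest in mean signal had a lower ratio. The third probe set, 216987_at, was below the filter with 62.5 in the knock-down cells and 32.7 in the control cells. Unlike BACH2 and PRDM1, which also lie on chromosome 6, IRF4 had 50 neighbors with a median log2 ratio of 0.076, 3 of them lower and 8 higher by 1.5-fold or more.

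Plasma cell genes were examined beside IRF4 and PRDM1. Of 8 genes 4 were measured, 2 had a log2 ratio above 0, and none was past 1.5-fold in its probe set of highest signal. XBP1, the factor of the secretory program, had 5674 in the knock-down cells and 3768 in the control cells (log2 ratio 0.55), which was past 1.5-fold in 4 of 8 alternatives. Its other probe set, 242021_at, had 126 in knock-down and 95.9 in control cells and passed the filter only through its knock-down signal. SDC1 (CD138) had 266 in knock-down and 215 in control cells for 201287_s_at (0.26) and 174 in knock-down and 69.6 in control cells for 201286_at (1.28). The probe set 201286_at passed the filter only through its knock-down signal. FKBP11, a folding enzyme of secretory cells, had 1968 in knock-down and 2667 in control cells for 219117_s_at (-0.48), and its 2 other probe sets had log2 ratios of -0.033 and 0.19. ELL2, an elongation factor of plasma cells, had 7563 in knock-down and 8707 in control cells (-0.25).

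PAX5, the factor that keeps B cells in their lineage, had nearly equal signals in its probe set above the filter, with 218 in the knock-down cells and 232 in the control cells for 221969_at (log2 ratio -0.14). The other probe set, 206802_at, was below the filter with 44.4 in the knock-down cells and 5.19 in the control cells. Its log2 ratio of 3.05 shrank to 0.61 with an offset of 64, so the size of this difference is not well determined. EBF1 was above the filter in 3 of 4 probe sets. For 227646_at the signal was 342 in knock-down and 396 in control cells (-0.26), that of 232204_at 292 in knock-down and 252 in control cells (0.17), and that of 229487_at 192 in knock-down and 167 in control cells (0.15). The directions thus differed within EBF1, and its probe set below the filter, 233261_at, had 44.2 in knock-down and 26.1 in control cells. EBF1 lies on chromosome 5, where the median was -0.16 over 525 other measured genes, and its part in these values was not tested.

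The octamer factors had low signals in both conditions. For POU2F2, 5 of 7 probe sets were below the filter, and both above it were close to it, with 168 in knock-down and 137 in control cells for 229750_at (log2 ratio 0.26) and 127 in knock-down and 106 in control cells for 227749_at (0.22). Of the 1000 probe sets nearest in mean signal, 62.6% had a lower ratio than 229750_at and 49.7% a lower ratio than 227749_at. Of the POU2F2 probe sets below the filter, 228343_at and 211660_at both had 69.5 in knock-down cells, against 47.2 and 47.1 in control cells (0.51 and 0.52). In the other direction 235661_at had 43.3 in knock-down and 60.7 in control cells, 242866_x_at had 26.4 in knock-down and 97.2 in control cells, and 211771_s_at had 8.06 in knock-down and 8.32 in control cells. For the coactivator POU2AF1 both probe sets were below the filter in both conditions, with 53.1 in knock-down and 49.5 in control cells for 205267_at and 11.6 in knock-down and 29.2 in control cells for 1569675_at. SPIB, an ETS factor of B cells and plasmacytoid dendritic cells, was well above the filter in contrast to these, with 1409 in the knock-down cells and 1284 in the control cells for 205861_at (log2 ratio 0.089). Its other probe set had 143 in knock-down and 128 in control cells (0.11), and SPIB thus showed no difference near 1.5-fold.

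Of the 15 member probe sets below the filter, 4 were lower and 6 were higher by 1.5-fold or more. Among all probe sets with 1 symbol below the filter these shares were 18.1% and 37.6%. Signals in this range were between 8.06 and 113 apart from the PAX5 value of 5.19, and their log2 ratios went from -2.05 for 213809_x_at to 3.05 for PAX5. Of the 8 members with several probe sets above the filter, 4 had log2 ratios of both signs (EBF1, TCF3, PRDM1 and ID2), against 50.5% of 5840 genes. POU2F2, SPIB and IRF4 were above 0 in all such probe sets and BACH2 was below 0, and SPIB was below 0 in some alternatives.

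Genes known as targets of these factors went in both directions. Of 9 genes known as activated by PAX5, 4 were measured and their median log2 ratio was -0.34, but -0.044 with the median over probe sets and 0.047 without a filter. CD79A, a chain of the B cell receptor that is also driven by EBF1 and E2A, had 332 in the knock-down cells and 178 in the control cells (0.85). CIITA, the master regulator of MHC class II genes, had 400.0 in knock-down and 630.2 in control cells for 205101_at (-0.70), but 229.8 in knock-down and 134 in control cells for 210925_at (0.74). The Wnt pathway factor LEF1 had 785 in knock-down and 1129.8 in control cells (-0.57), and IKZF3 had 2366 in knock-down and 2467 in control cells (-0.11). Of the 8 genes known as driven by EBF1 and E2A, CD79A alone was measured. Of the genes known as repressed by PAX5, 2 of 6 were measured, NOTCH1 with 295 in knock-down and 374 in control cells (-0.39) and XBP1. Among 5 measured genes known as repressed by PRDM1, CIITA was past 1.5-fold, with a list median of -0.13, and MYC had 2900.2 in knock-down and 3073 in control cells. Over all genes 5.42% were at least 1.5-fold lower.

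Immunoglobulin genes, whose promoters hold octamer sites, were low in both conditions, with 3 of 27 probe sets above the filter. The probe set of IGKC among them had 141 in the knock-down cells and 185 in the control cells (log2 ratio -0.44), and no gene of the list was past 1.5-fold. Of the 8 measured B cell surface and signaling genes, CD79A was at least 1.5-fold higher and the kinase LYN, with 883 in knock-down and 1308 in control cells, at least 1.5-fold lower. The median of these genes was -0.037. Among all genes measured 5.42% were lower and 7.54% higher by 1.5-fold or more. CD24 had 2759 in knock-down and 1894 in control cells (0.50), with all 6 probe sets above 0, and the kinase BLK had 220.4 in knock-down and 297 in control cells (-0.48).

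Other lymphoid transcription factors had a median log2 ratio of 0.019 over 14 measured genes, of which 2 were at least 1.5-fold lower and 1 higher. Over all 11794 genes, 5.42% were lower and 7.54% higher by that much. The same shares apply to the lists below. BACH1 and MYB, a factor of progenitor and activated lymphocytes with 5531 in knock-down and 9187 in control cells (-0.78), were the lower ones of the 14. The other MYB probe set, 215152_at, had 242 in knock-down and 287 in control cells (-0.29). With the median over its probe sets MYB was within 1.5-fold (-0.53). IKZF2 (Helios) was higher in both probe sets above the filter, with 909 in knock-down and 496 in control cells for 231929_at (0.83). Its probe set 220567_at, with 172 in knock-down and 89.4 in control cells, passed the filter only through its knock-down signal. Of 4 measured genes of T, NK and myeloid cells 1 was past 1.5-fold, NCAM1 with 172 in knock-down and 73.2 in control cells (1.19). Its probe set, 227394_at, passed the filter only through its knock-down signal. The other NCAM1 probe sets were below the filter and went both ways, from -1.75 for 209968_s_at to 2.01 for 231532_at. The median of this list was 0.34, and 0.056 with the filter at the 75th percentile, where 1 gene was left. The genes of CD3, CD4, CD8A and CD14 were below the filter. The summed signal of all 29 probe sets was 23540.4 in knock-down and 24319 in control cells. Most of this sum came from GATA3 on both arrays, so it does not describe the other genes of the list. GATA3, a T cell factor known from HL cells, had 15120.4 in knock-down and 14676 in control cells for 209604_s_at, whereas 209603_at had 2126 in knock-down and 3291 in control cells (-0.68). BCL11B had 533 in knock-down and 352 in control cells for 222895_s_at (0.55) and 308 in knock-down and 283 in control cells for 219528_s_at (0.079), and TBX21 had 183 in knock-down and 161 in control cells. Among the 9 markers of Hodgkin and Reed-Sternberg cells the median was 0.031, and FUT4 was the gene at least 1.5-fold lower, with 782 in knock-down and 1177 in control cells for 209892_at, whereas 209893_s_at had 277 in knock-down and 209 in control cells (0.36).

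**Figure D4:**
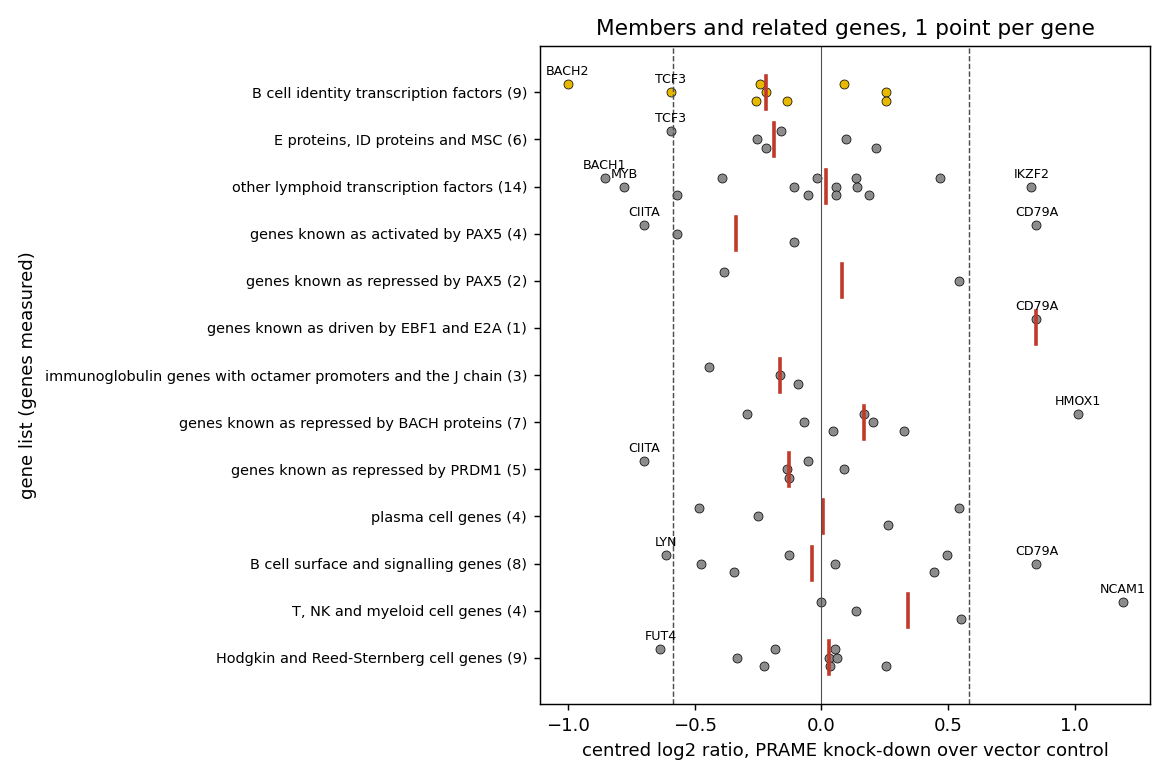
Centered log2 ratio (PRAME knock-down to vector control) of the members (yellow) and for related gene lists (grey), 1 point per gene at its probe set of highest signal, with red bars at the medians and dashed lines at 1.5-fold (1 array per condition). The members range from -1.001 for BACH2 to 0.26, and the lists share genes such as CD79A and CIITA.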

How the data were processed

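Knock-down and control L-428 cells were measured on 1 Affymetrix HG_U133PLUS2.0 array each. The deposited values are linear MAS5 intensities from Expression Console 1.1, scaled by the authors so that the mean without the highest and lowest 2% of values was 500.1 on both arrays. Detection calls were not used here, and the sources used here give no hybridization dates.

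The 62 control probe sets were left out. Signals were log2 transformed with no offset, the filter was the median of the mean log2 signal, and log2 ratios were centered by subtracting 0.045. Genes were named through the platform annotation and updated through RefSeq (GRCh38.p14). This table was otherwise used for chromosomes and gene order, and its promoter sequences were printed with the coordinates of that build. A gene was represented by its probe set of highest mean signal above the filter. With 1 array per condition, thresholds of 1.5-fold and 2-fold replaced tests, and precision is limited by the number of arrays. All probe sets of the members were named, and of each related list up to 4 genes with the largest differences. MSC, TCF4 and the further probe sets of SDC1, GATA3, SLC7A11, XBP1, BCL11B, FUT4, FKBP11, MYB and CIITA were named after their values were seen. Members and lists were chosen with earlier results of these data known. The alternatives were no centering, quantile normalization, a loess curve (span 0.4), an offset of 64, the filter moved to the 75th percentile or omitted, gene values as medians over probe sets, no probe sets with the endings _s_at, _x_at and _a_at, and the members without TCF3, which was added after the data were seen. Steps were tested on simulated data. Scripts ran in Python 3.11.15 with pandas 2.3.3, numpy 2.4.6, matplotlib 3.10.9 and, for loess, statsmodels 0.14.6.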

Additional observations from a re-analysis of the deposited data

How the results depend on the processing

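The count of member probe sets at least 1.5-fold lower, 6 of 26, was 4 without centering, with the trend subtracted and with quantile normalization, 3 with an offset of 64, 2 of 14 with the filter at the 75th percentile, 12 of 41 without a filter and 0 of 13 without the endings _s_at, _x_at and _a_at, which removed both BACH2 probe sets. Without TCF3 it was 3 of 17. Of all probe sets, 5.46% were at least 1.5-fold lower without centering, 7.06% with the trend subtracted and 6.95% with quantile normalization. The share was 4.29% with an offset of 64, 4.14% with the filter at the 75th percentile and 14.6% without a filter. Without the 3 endings it was 6.93%. The count of those at least 1.5-fold higher, 1 of 26, was 2 with the trend subtracted and with quantile normalization, 6 of 41 without a filter, and 0 with the filter at the 75th percentile and without TCF3. The share of all probe sets at least 1.5-fold higher moved as well. It was 5.98% with the trend subtracted, 6.15% with quantile normalization, 18.2% without a filter and 3.58% with the filter at the 75th percentile. The median log2 ratio of the member genes went from -0.27 without a filter to 0.10 with the median over probe sets, and was 0.073 without the 3 endings. TCF3 was within 1.5-fold in 6 of 8 alternatives and reversed to 1.29 without these endings, where 202648_at represents it, and CIITA reversed to 0.018 with the median over its probe sets. BACH2 stayed at least 1.5-fold lower in the 7 alternatives that measured it, and the share of all probe sets above the filter at least 1.5-fold lower lay between 4.14% and 14.6% over the alternatives. Low signals limit the ratios of POU2F2, POU2AF1 and the weaker probe sets of PAX5 and TCF3. No paired analysis was possible because each condition has 1 array. No array could be left out for the same reason.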

Other observations

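The POU2F2 probe sets 228343_at and 211660_at had nearly the same signals on both arrays. In the knock-down cells they were 69.50 and 69.55, and in the control cells 47.17 and 47.14. CD20 (MS4A1), the surface antigen of mature B cells, had higher signals in the knock-down cells in all 4 probe sets, although 3 of them were below the filter. The signal of 210356_x_at, the probe set above it, was 135 in the knock-down cells and 95.9 in the control cells, so it passed only through its knock-down signal. The signal of 217418_x_at was 160 in the knock-down cells and 20.3 in the control cells. The J chain gene JCHAIN, a plasma cell gene repressed by PAX5, had 2.44 in the knock-down cells and 84.5 in the control cells in its only probe set, which was below the filter. The E protein antagonist ID3 was below the filter as well, with 42.5 in the knock-down cells and 16.5 in the control cells. These genes were chosen after their values were seen, and below the filter 18.1% of all probe sets were lower and 37.6% higher by 1.5-fold or more.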
